A study of Mus musculus with 2 samples.

Results

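Theca cells were taken here as the ovarian cells with at least 1000 CPM of Cyp17a1, less than 5000 CPM of Inha and less than 500 CPM of C1qa, C1qb and C1qc together. CPM is a gene's molecule count (UMI count) over the total count of the cell, times 1000000. Cells under 500 detected genes or over 25% mitochondrial counts were not considered. Of the 29623 remaining cells, 543 met the rule. The control library gave 273 of its 14853 cells and the PS-MP library 270 of 14770. Cyp17a1, Inha and the C1q genes chose the cells, so their levels are a description and not a finding.

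The cells came from whole ovaries of female ICR mice, dissociated with enzymes and captured on BD Rhapsody beads. Mice were dosed by gavage each day over 35 days from an age of 3 weeks, with collection at 8 weeks. The control group received ddH2O and carries the label WT. The exposed group received polystyrene microplastics (PS-MPs) of 0.1 µm at 1 mg in 100 µL per mouse. Both groups have intact ovaries with no named genetic change. The labels give n = 16 mice without saying whether that is per group, and nothing ties a cell to a mouse. Each group is 1 library, so the effect of exposure could not be tested against replicates. The differences below are between these 2 libraries. Each 95% interval covers counting error only, not differences between mice, dissections or captures.

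Theca cells form the layer around a growing follicle, outside its basement membrane. They carry the receptor for luteinizing hormone (LH) and turn cholesterol into androgens, which the granulosa cells inside the follicle convert to oestrogens with aromatase. CYP17A1 is the enzyme that makes the androgen precursor, and in the ovary its mRNA is the classical mark of theca cells. Steroidogenic interstitial cells of the mouse ovary, known to arise from the theca of degenerating follicles, use the same enzymes, and the rule does not separate them from the theca of living follicles.

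The share of theca cells was 1.84% (exact Clopper-Pearson 95% interval 1.63 to 2.07) of the control library and 1.83% (1.62 to 2.06) of the PS-MP library. A luteal class was gated at 500 CPM or more of Lhcgr and 2000 CPM or more of Cyp11a1. Cells that reached these levels but had at least 1000 CPM of Cyp17a1, or passed another gate, were not counted in it. Nor were cells at these levels with at least 500 CPM of Nr5a1 and 2000 CPM of Hsd3b1, which were placed in a separate set described below. The luteal class numbered 155 control and 1435 PS-MP cells. With those cells left out of the denominator, the shares were 1.86% and 2.02%. In both cases the 2 intervals overlapped. Cyp17a1 ranged over cells from 1033 to 21919 CPM in the control library, with a median of 5005 CPM. In the PS-MP library it ranged from 1006 to 24104 CPM, with a median of 4370 CPM. The theca cells were shallower in the PS-MP library, with a median of 7361.5 UMI counts and 2908.5 genes per cell, against 10129 counts and 3531 genes in the control library. Their summed counts were 2871206 (control) and 2295337 (PS-MP). No theca cell barcode of 1 library was found among the kept cells of the other.

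**Figure D1:**
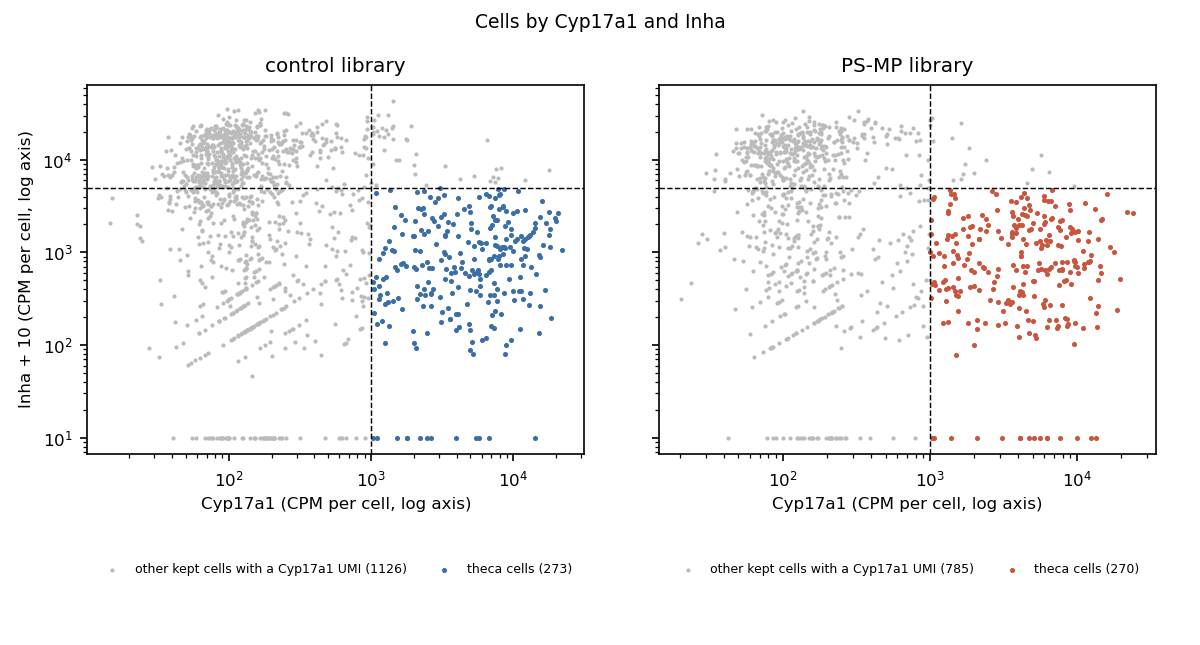
Each kept cell with a Cyp17a1 count, by Cyp17a1 (horizontal, CPM, log axis) and Inha plus 10 CPM (vertical, CPM, log axis), for the control library (left) and the PS-MP library (right). Coloured points are the 273 and 270 theca cells, to the right of the 1000 CPM line and below the 5000 CPM line, and grey points are the other cells.

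Cells lay close to the Cyp17a1 limit on both sides of it. Just inside it, from 1000 to 1500 CPM, lay 30 control and 42 PS-MP cells. Just outside it, from 500 to 1000 CPM and with the other limits met, lay 61 and 41 cells. Hsd3b1, which encodes the enzyme that makes progesterone and androstenedione from their precursors, stood at 7449 and 6723 CPM in the inner band. In the outer band it stood at 7506 and 7376 CPM. A wider set of cells under the limit, with at least 500 CPM of Nr5a1 and 2000 CPM of Hsd3b1, numbered 155 and 156 and is called the below-limit steroidogenic cells. Cells that passed the luteal gate were kept in this set and taken out of the luteal class, while cells that passed any other gate were left out. The set carried 4629 and 4986 CPM of Cyp11a1 and 754 and 623 CPM of Lhcgr, so it may hold luteal cells. The limit on Inha, an inhibin subunit of granulosa cells, removed 41 control and 18 PS-MP cells. Those cells carried 7404 and 3793 CPM of Inhba, an activin and inhibin subunit made by granulosa cells, beside 6965 and 7715 CPM of Hsd3b1. A doublet caller marked 6 theca cells of the control library and 11 of the PS-MP library, which were kept.

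The other theca markers were present in both libraries. Slc45a3, a transporter of the solute carrier family, was at 301 CPM in control and 308 CPM in PS-MP theca cells, against 170 and 289 CPM in the below-limit steroidogenic cells and at most 16.1 CPM in the other gated classes. Stc1, the secreted hormone stanniocalcin, was at 751 and 822 CPM, an order that turned with a Cyp17a1 limit of 2000 CPM. It was higher still, at 993 and 2139 CPM, in the below-limit steroidogenic cells, and at 230 and 274 CPM in stromal cells. Aldh1a2, a retinoic acid-making dehydrogenase, was at 236 and 356 CPM, and at 337 and 447 CPM in the below-limit cells. Aoc3, an amine oxidase of the cell surface, was at 516 and 496 CPM but reached 733 and 726 CPM in the pericyte gate, so it does not single out theca cells. The classes compared here (granulosa, luteal, stromal, endothelial, pericyte and C1q cells) were gated by marker CPM after the files were read, among cells under 1000 CPM of Cyp17a1 that passed 1 gate only. The gates were 5000 CPM of Inha for granulosa cells and 1000 CPM of Col1a1, Dcn and Mfap4 for stromal cells. They were 500 CPM of Pecam1, Cdh5, Kdr and Flt1 for endothelial cells, 1000 CPM of Rgs5, Notch3 and Myh11 for pericytes, and 500 CPM of the C1q genes for C1q cells (complement genes that mark macrophages).

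Insl3, the peptide hormone of theca cells, was nearly uncounted, with 1 UMI in control and 2 UMIs in PS-MP theca cells. In RefSeq on GRCm38.p6, Insl3 (chr8:71689252-71690577) lies wholly inside Jak3 (chr8:71676383-71690577), a cytokine receptor kinase gene with the same end coordinate. Jak3 had 13 and 12 counts in theca cells. How the authors' counting treated overlapping genes is not given in the sources used here, so the Insl3 values say little about its expression.

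Of the markers of other cell types, those of luteal cells, fibroblasts and granulosa cells had the highest sums in theca cells. The 9 luteal markers summed to 6729 and 5721 CPM, nearly all of it Cyp11a1 and Lhcgr, which theca cells are known to use themselves. Of 10 stromal fibroblast markers, 7 in control and 6 in PS-MP theca cells reached 20 CPM, with summed levels of 4553 and 4129 CPM. Most of that was Col1a2 and Col3a1, collagen genes, at 2478 and 1531 CPM in control and 2044 and 1551 CPM in PS-MP cells. Dcn, which encodes decorin and is abundant in fibroblasts, was at 95.4 and 105 CPM, against 1278 and 1324 CPM in the stromal gate. Granulosa markers summed to 1650 and 1656 CPM over 11 genes, mostly Inha, while Fshr, the FSH receptor, was at 12.2 and 10.02 CPM. Macrophage markers summed to 110 and 38.8 CPM over 9 genes, and C1qa was at 0 in the PS-MP cells by count. Blood endothelial markers summed to 71.7 and 90.2 CPM over 8 genes. In the control library 17 theca cells, and in the PS-MP library 16, also passed a stromal or endothelial gate.

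Of the other luteal markers, more were higher than lower in PS-MP theca cells. Cited4 was at 9.40 and 52.3 CPM in theca cells, Parm1 at 9.75 and 20.5 CPM, Sfrp4 at 21.6 and 49.2 CPM and Ptgfr at 3.48 and 10.9 CPM. A single PS-MP cell held 44.2% of the Sfrp4 counts. Akr1c18, which inactivates progesterone, was lower, at 9.06 and 1.74 CPM, as was Onecut2, at 2.44 and 0.871 CPM. Edn2, endothelin-2, which granulosa cells make around ovulation, had a UMI in 14 PS-MP theca cells (5.19%) and in 0 of 273 control theca cells, which allows up to 1.10% of cells with a UMI and sets no limit on cells that express it. Among cells of the C1q gate, which should lack it, 4.57% of PS-MP cells had a UMI and 0 of 412 control cells, which allows up to 0.728%. The theca share was close to the C1q share at the unequal depths of these cells. With every cell thinned to the same depth, the PS-MP shares were 3.33% in theca cells and 1.71% in C1q cells. The Edn2 level was 18.3 CPM in PS-MP theca cells and 7.11 CPM in PS-MP C1q cells. Because C1q cells had counts too, expression by theca cells is not concluded from these values, and it was not tested. The median depth of those C1q cells was 7948 counts in the control and 6214 counts in the PS-MP library. Steroidogenic transcripts were likewise higher in PS-MP than in control C1q cells, with Cyp11a1 at 460 against 107 CPM and Star at 81.7 against 13.3 CPM. These values stand beside the steroidogenic results below, and their part in those results was not tested.

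The genes that led theca cells had many roles. The list of 25 genes was chosen on these values, as those with the highest ratio of the lower theca level over the highest level in the other gated classes, the below-limit cells left aside, so no test applies. Luteal-gate cells with high Nr5a1 and Hsd3b1 were among the cells left aside, so low Nr5a1 in the luteal class was partly set by the gates. The ratios were not computed with those cells put back. Cyp17a1 led with a ratio of 238 and Slc45a3 followed with 18.7. Bpifb4, a member of the BPI family of lipid-binding proteins, was at 288 and 365 CPM, or 11.7 times the highest of those classes. Cdon, a co-receptor for hedgehog proteins, was at 140 and 125 CPM, or 7.93 times. Nr5a1, the nuclear receptor that drives steroidogenic genes, was at 1016 and 833 CPM, or 5.79 times. Aldh1a1, a retinaldehyde dehydrogenase, was at 2768 and 2648 CPM, or 5.26 times. Fads2, a desaturase of polyunsaturated fatty acids, led by 4.50 times. Plin1, which coats lipid droplets, led by 4.10 times. Fabp3, a fatty acid carrier, led by 6.08 times, and Alas1, the first enzyme of haem synthesis, by 3.77 times. Gas6, a secreted ligand of TAM receptors, closed the list at 2.90 times. In the below-limit steroidogenic cells, whose gate fixed high Nr5a1, Aldh1a1 was at 3030 and 3625 CPM and Gas6 at 1955 and 1368 CPM. Cdon was at 179 and 129 CPM there, above its theca levels, so it does not single out theca cells from them. Bpifb4 was at 164 and 253 CPM there, below its theca levels. Fads2 was lower there, at 358 and 558 CPM against 1020.1 and 1199 CPM in theca cells.

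**Figure D2:**
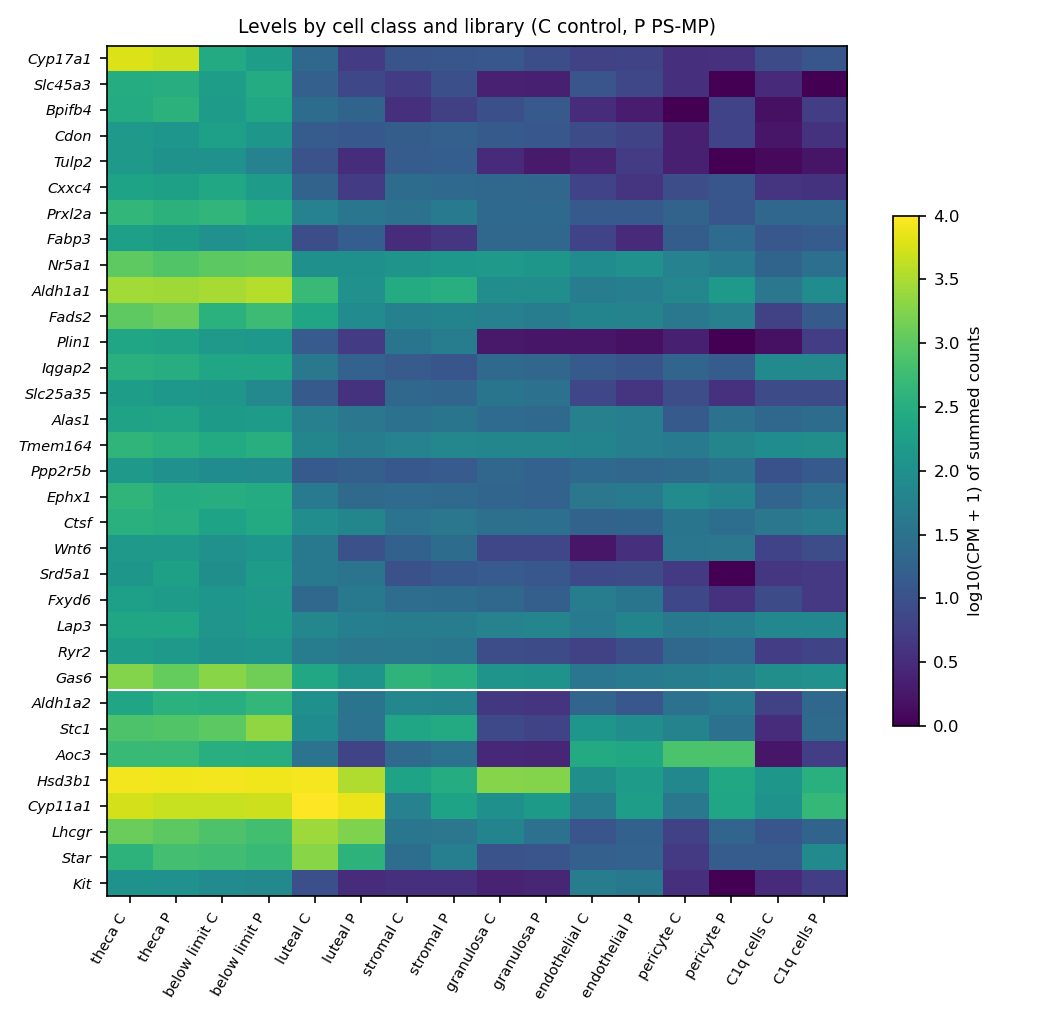
Levels (log10 of CPM plus 1, colour) of the 25 genes that lead theca cells (above the white line) and of 8 further markers, steroidogenic genes and Kit (below it), in each cell class of the control (C) and PS-MP (P) library. Cyp17a1 is far lower in the below-limit steroidogenic cells than in theca cells, and Fads2 is lower there too; high Nr5a1 and Hsd3b1 in those cells were set by their gate.

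Between the libraries, all but 1 of the measured steroid synthesis genes lay within 1.5-fold, while Irgm1, Cxcl10 and other genes of the interferon response were higher in the PS-MP cells by more than that. Star, Pde10a and Kcnk3 were also higher by at least 1.5-fold, and Gsta4, Serpina3a and Stk32a lower, under all 14 alternative settings. In the below-limit steroidogenic cells Star was at 594 and 489 CPM, Pde10a at 20.2 and 6.69 and Kcnk3 at 402 and 347. Those levels went the other way, while Serpina3a (55.9 and 32.8 CPM) and Stk32a (29.6 and 21.4 CPM) were lower there too. Of 7166 genes at 20 CPM or more in a library, 226 were at least 1.5-fold higher in the PS-MP cells (3.15% of those tested) and 244 at least 1.5-fold lower (3.4%). The counting interval excluded 1 for 220 of the first and 231 of the second. The median log2 ratio over all genes was -0.02. These counts describe size and are no test of the exposure. They include genes that reached 20 CPM in 1 library only (351 in PS-MP, 370 in control). Of the 6445 genes at 20 CPM in both, 110 were called higher (1.71%) and 125 lower (1.94%). With every cell thinned to 3500 UMI counts, 486 genes were called higher and 531 lower.

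Of 16 measured genes of steroid synthesis, 1 was at least 1.5-fold higher and 0 lower in PS-MP theca cells, with a median log2 ratio of 0.03. Over all genes 3.15% were called higher and 3.4% lower. Star, the protein that brings cholesterol into mitochondria, was the 1 higher gene. It was at 383 CPM in control and 638 CPM in PS-MP cells, a ratio of 1.66 (95% interval 1.54 to 1.80). Star counts were found in 58.2% of control and 73.3% of PS-MP theca cells, and in 9.47% and 9.14% of C1q cells. With every cell thinned to 3500 counts, these shares were 41.8% and 61.5% in theca cells and 5.10% and 4.0% in C1q cells. Cyp11a1, the side-chain cleavage enzyme that makes pregnenolone, was at 5436 and 4598 CPM, a ratio of 0.846 (0.825 to 0.867). Hsd3b1 was at 8442 and 8272 CPM, a ratio of 0.980 (0.961 to 0.999), which lay just above 1 in 3 of 14 alternative settings. Cyp11a1 and Hsd3b1 thus lay within 1.5-fold between the libraries. Cyp17a1 itself, which the rule selected on, was at 6066 and 5191 CPM.

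None of the electron carriers and helpers of these enzymes passed 1.5-fold. Fdx1, the ferredoxin that feeds electrons to CYP11A1, was at 2278 and 2800 CPM, a ratio of 1.23 (1.19 to 1.27), and in C1q cells at 58.4 and 286 CPM. Fdxr, the reductase of that ferredoxin, was at 595 and 621 CPM. Por, the reductase that serves CYP17A1, was at 121 and 149 CPM, a ratio of 1.23 (1.05 to 1.43). Cyb5a, a cytochrome b5 that favours the androgen-forming step, was at 306 and 301 CPM. Mgarp, a mitochondrial protein of steroidogenic cells, was at 638 and 870 CPM, a ratio of 1.36 (1.28 to 1.45), and in C1q cells at 15.9 and 72.5 CPM. Srd5a1, a 5-alpha-reductase of steroids, was at 132 and 185 CPM, a ratio of 1.40 (1.22 to 1.61). In C1q cells Srd5a1 was at 3.27 and 3.55 CPM. Nr5a1 had a ratio of 0.821 (0.774 to 0.870).

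Of the genes of LH and cyclic AMP signalling, Pde10a was higher in the PS-MP cells and the rest lay within 1.5-fold. Lhcgr, which encodes that receptor, was at 1237 CPM in control and 970 CPM in PS-MP theca cells, a ratio of 0.784 (0.743 to 0.827). Prkar2b, a regulatory subunit of protein kinase A, was at 454 and 634 CPM, a ratio of 1.40 (1.30 to 1.51). Pde10a, a phosphodiesterase that breaks down cyclic nucleotides, was at 62.3 and 124 CPM, a ratio of 1.98 (1.64 to 2.41). Counts of Pde10a were found in 76 control and 109 PS-MP cells. Rgs2, a regulator of G-protein signalling, was at 236 and 302 CPM, and Crem, a transcription factor of the cyclic AMP response, at 79.4 and 97.2 CPM. Gnas, the stimulatory G-protein subunit, was at 2195 and 2179 CPM. The list had 20 measured genes, with 1 called higher and 0 lower, beside 3.15% and 3.4% over all genes. Its median log2 ratio was 0.04. The ratios of Lhcgr, Prkar2b and Pde10a stayed on the same side of 1 under all 14 alternative settings.

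Among 9 measured hormone receptors, 1 was at least 1.5-fold lower and 0 higher, beside 3.4% and 3.15% over all genes. Esr1, the oestrogen receptor alpha, was at 94.0 and 61.9 CPM, a ratio of 0.658 (0.533 to 0.809). With cells thinned to 3500 counts the Esr1 ratio was 0.811, inside 1.5-fold. Prlr, the prolactin receptor, was the most abundant of them at 818 and 901 CPM. Igf1r, the IGF-1 receptor, was at 169 and 204 CPM. Kit, the receptor of the granulosa signal KIT ligand, was at 107 and 103 CPM in theca cells and at 2.55 and 2.52 CPM in stromal cells. Apart from Esr1, the receptors named here lay within 1.5-fold.

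Hedgehog signals from granulosa cells are known to act on the cells that form the theca, and Ptch1, Gli1 and Hhip are targets that report on them. Ptch1, the hedgehog receptor, was at 89.2 and 94.1 CPM in theca cells and at 466 and 454 CPM in stromal cells. Gli1, a transcription factor of the pathway, was at 15.7 and 24.0 CPM, from 45 and 55 counts, a ratio of 1.53 (1.01 to 2.32). Hhip, a decoy that binds hedgehog, was at 101 and 79.3 CPM, a ratio of 0.788 (0.651 to 0.952). Gli1 and Hhip were also higher in stromal cells, at 107 and 110 CPM for Gli1 and 300 and 241 CPM for Hhip. Of 8 measured genes of the pathway, Gli1 alone passed 1.5-fold, and it reached 20 CPM only in the PS-MP library. Its ratio was 1.31 with a Cyp17a1 limit of 500 CPM. The median log2 ratio was -0.13, and 3.15% of all genes were called higher. The ratios of these targets lay on both sides of 1.

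Retinoid genes went in both directions. Aldh1a2 was at 236 and 356 CPM, a ratio of 1.51 (1.36 to 1.67), with counts in 178 control and 206 PS-MP cells. With a Cyp17a1 limit of 500 CPM the Aldh1a2 ratio was 1.37, inside 1.5-fold. Aldh1a1, the more abundant dehydrogenase, had a ratio of 0.956 (0.925 to 0.989), which was 1.02 with cells thinned to 3500 counts. Dhrs3, which reduces retinaldehyde back to retinol, was at 318 and 236 CPM, a ratio of 0.743 (0.666 to 0.827). Rarg, a retinoic acid receptor, was at 22.6 and 14.8 CPM, a ratio of 0.654 (0.419 to 1.01), which was 0.789 without cells that pass another gate. Cyp26b1, which degrades retinoic acid, was at 40.7 and 7.41 CPM, a ratio of 0.182 (0.102 to 0.304). Its counts lay in 27 control and 8 PS-MP cells, and the 5 cells with the most counts held 62.4% and 82.4% of them. Without the cells with an Edn2 count the ratio was 0.115. Of 9 measured retinoid genes, 1 was at least 1.5-fold higher and 2 lower, beside 3.15% and 3.4% over all genes. The list median log2 ratio was -0.06. Both lower members, Cyp26b1 and Rarg, reached 20 CPM in the control library only, so the count is no support for a direction.

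Several genes that respond to interferon stood higher in PS-MP theca cells. Of 40 genes in the list, 17 were measured, and 10 of these were at least 1.5-fold higher and 0 lower. Of the 10, Igtp, Iigp1, Ifi47 and Rtp4 reached 20 CPM in the PS-MP library only and so had to be higher there. Of the 13 members at 20 CPM in both libraries, 6 were at least 1.5-fold higher and 0 lower, beside 1.71% called higher among all genes at that level in both. Their median log2 ratio was 0.46, beside -0.02 over all measured genes. Of the 23 members under 20 CPM in both, 17 had more and 5 less CPM in the PS-MP cells. Ifit3 was among the latter, with 11 and 3 counts. Interferons act through transcription factors of the STAT and IRF families, which bind response elements in the promoters of these genes. The promoters of 4 members are shown because 3 of them belong to members that were higher and 1 to a member that was not. They are the 250 bases before the start of transcription in RefSeq on GRCm38.p6, which is not the build of the deposited counts (GRCm39). Capitals mark letters that read TTTC, any 2 bases and TTTC again on either strand, a pattern like the interferon-stimulated response element. The windows are chr11:48871421-48871670 (minus strand) for Irgm1, chr5:92348890-92349139 (minus) for Cxcl10, chr3:142620413-142620662 (plus) for Gbp2 and chr8:71537473-71537722 (minus) for Bst2.
Irgm1: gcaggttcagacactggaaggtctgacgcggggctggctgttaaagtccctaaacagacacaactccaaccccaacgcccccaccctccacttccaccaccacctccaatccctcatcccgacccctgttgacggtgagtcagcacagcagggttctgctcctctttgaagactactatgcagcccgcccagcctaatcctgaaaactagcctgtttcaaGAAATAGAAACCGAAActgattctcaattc
Cxcl10: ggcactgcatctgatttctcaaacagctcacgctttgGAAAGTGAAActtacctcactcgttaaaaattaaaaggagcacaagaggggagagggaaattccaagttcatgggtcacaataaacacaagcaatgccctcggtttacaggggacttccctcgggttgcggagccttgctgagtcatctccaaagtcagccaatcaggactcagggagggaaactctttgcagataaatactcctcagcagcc
Gbp2: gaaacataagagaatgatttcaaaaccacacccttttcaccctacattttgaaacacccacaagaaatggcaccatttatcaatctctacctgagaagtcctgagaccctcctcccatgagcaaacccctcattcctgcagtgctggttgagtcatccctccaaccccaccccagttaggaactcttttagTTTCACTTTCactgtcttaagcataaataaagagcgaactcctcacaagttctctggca
Bst2: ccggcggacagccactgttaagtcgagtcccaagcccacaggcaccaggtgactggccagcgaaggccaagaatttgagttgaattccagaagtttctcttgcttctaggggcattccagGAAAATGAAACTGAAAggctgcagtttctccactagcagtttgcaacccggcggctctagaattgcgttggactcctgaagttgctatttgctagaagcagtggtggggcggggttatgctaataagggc
The Irgm1 promoter held overlapping matches that began 30 and 24 bases before the start. The Cxcl10 match began 213 bases before the start and the Gbp2 match 59 bases before it. Bst2 held overlapping matches at 130 and 124 bases, yet its level was not higher in the PS-MP cells. A match is a description of letters and not a shown binding site.

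Within 300 bases around the start (250 before and 50 after), 9 of the 13 measured list members found in the RefSeq table held these letters. They were 6 of 7 members called higher and 3 of 6 others, a small number of genes. Of all 27025 genes in the table, 3.99% held them, and of the 5736 genes both tested in theca cells and found in the table, 3.70%. Among all genes called higher in theca cells the share was 6.92%, and among those called lower it was 7.26%. Over all genes, then, the letters were about as frequent among genes called lower as among those called higher. Ifi27, Iigp1 and Rtp4 were not in the table.

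Cxcl10, a chemokine that draws T cells, was at 50.5 CPM in control and 206 CPM in PS-MP theca cells, a ratio of 4.07 (3.37 to 4.94). Its counts lay in 33 and 65 cells, and the 5 cells with the most held 44.1% and 32.2% of them. The gene was also at 239 and 406 CPM in endothelial cells and at 61.1 and 60.4 CPM in C1q cells. In the below-limit steroidogenic cells Cxcl10 was at 76.1 and 71.5 CPM, so it was not higher there in the PS-MP library. Irgm1, an interferon-inducible GTPase, was at 91.6 and 253 CPM, a ratio of 2.76 (2.38 to 3.20). Counts of Irgm1 were spread over 93 and 145 cells, or 34.1% and 53.7%, against 18.7% and 20% of C1q cells. After thinning, the Irgm1 shares were 19.0% and 39.6% in theca cells and 6.31% and 10.9% in C1q cells. The counts of Irgm1 were thus not confined to a few cells. Irgm1 was at 125 and 240 CPM in the below-limit steroidogenic cells. Iigp1, another such GTPase, was at 4.88 and 31.8 CPM (14 and 73 counts), and 1 control cell held 64.3% of the control counts. Its ratio was 6.52 (3.65 to 12.5), and 3.62 with a Cyp17a1 limit of 2000 CPM. In C1q cells Iigp1 was at 6.79 and 50.5 CPM. Rtp4, an interferon-induced transmembrane protein, was at 7.66 and 29.6 CPM, and Ifi47, a further GTPase, at 7.31 and 20.5 CPM.

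Regulators of the response and further targets were measured as well. Irf1, an interferon regulatory factor, was at 694 and 914 CPM, a ratio of 1.32 (1.24 to 1.40). Stat2, a transcription factor of the response, was at 58.9 and 74.9 CPM and Irf9, its partner, at 35.2 and 44.9 CPM. Ifitm3, which restricts virus entry, was at 77.7 and 138 CPM, a ratio of 1.77 (1.49 to 2.11). Gbp2, Gbp7 and Igtp, all GTPases, had ratios of 1.58, 1.53 and 1.59, and the Igtp ratio was 0.876 with an Inha limit of 2000 CPM. The call of Gbp7 ended without cells that pass another gate, at 1.39, and that of Gbp2 with the Cyp17a1 bins weighted alike, where it lay just under the limit. Bst2, the antiviral protein tetherin, was at 204 and 173 CPM, a ratio of 0.849 (0.745 to 0.966). It was the 1 measured member whose interval lay below 1.

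The median over all measured interferon genes was 0.63 in theca cells, 0.69 over 21 measured genes in stromal cells and 0.56 over 19 in the below-limit steroidogenic cells. In granulosa cells it was -0.06 over 6 measured genes. These differences between classes were not tested. The macrophage marker sums are given above, and T, NK or innate lymphoid markers summed to 17.8 and 6.10 CPM. The macrophage sums include the C1q genes, which the rule limited, and 1 control cell reached 16949 CPM of these markers. Whether immune cells had a part in the interferon ratios was not tested. Without the cells that pass another gate, or without those with an Edn2 count, Irgm1 stayed between 2.68 and 3.12, the range over all 14 alternatives. The range for Cxcl10 was 3.46 to 5.06. Genes of MHC class I, which present peptides and respond to interferon, had smaller differences. B2m, its invariant chain, was at 345 and 450 CPM, a ratio of 1.30 (1.19 to 1.42), and H2-K1 and H2-D1, heavy chains, had ratios of 1.31 and 1.39. None of the 9 measured genes of that list passed 1.5-fold, and 3 had an interval above 1 and 1 an interval below 1.

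**Figure D3:**
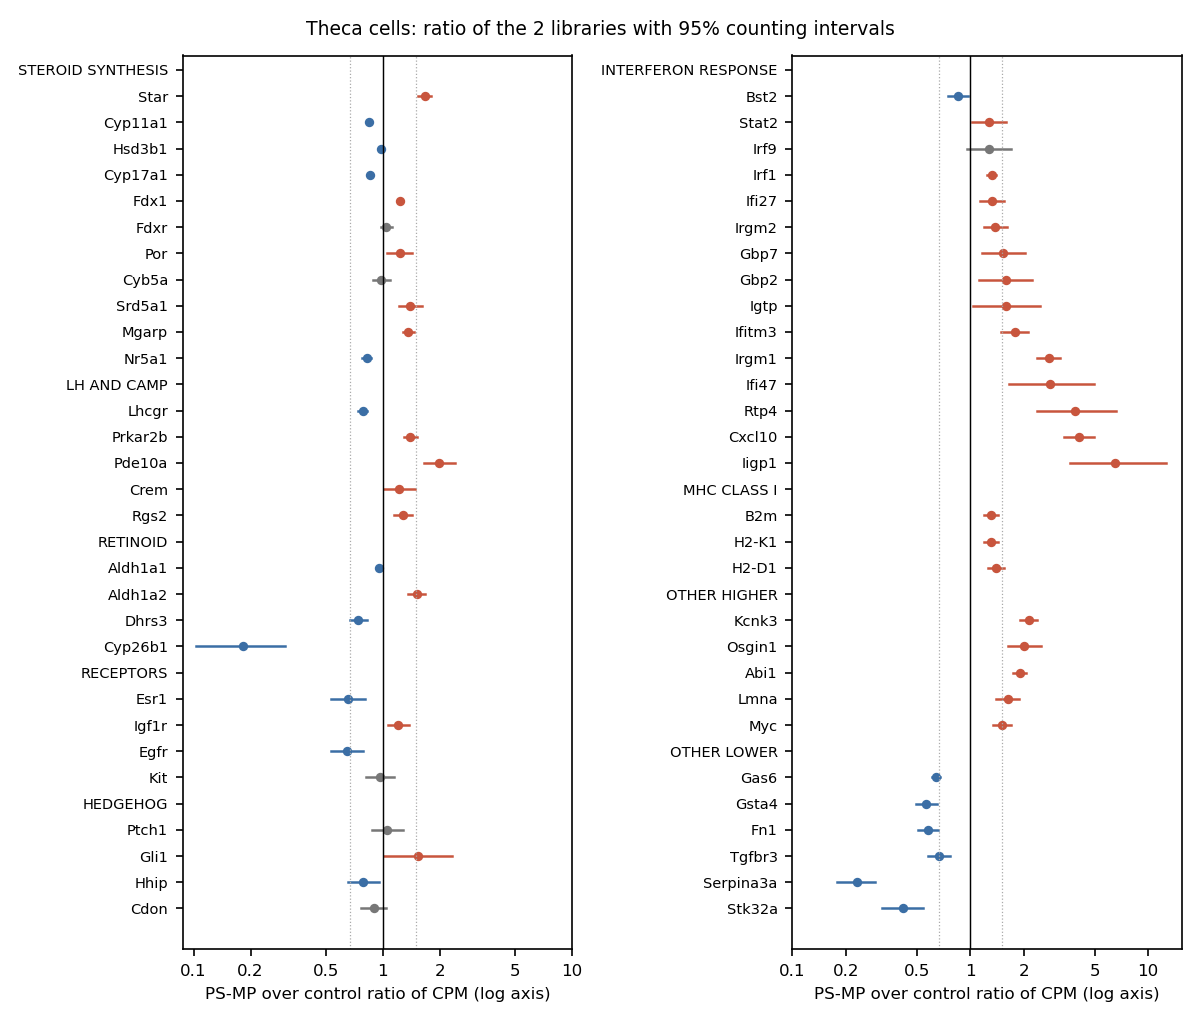
PS-MP over control ratio of CPM in theca cells (horizontal, log axis) for named genes grouped by role, with 95% counting intervals; red marks intervals above 1, blue intervals below 1 and grey intervals that include 1. Dotted lines mark 1.5-fold, and the interferon genes reach from 0.849 for Bst2 to 6.52 for Iigp1 while the plotted steroid synthesis genes stay between 0.821 and 1.66.

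Signalling genes of the TGF-beta and growth factor families went both ways. Of 18 measured TGF-beta and BMP genes, 3 were at least 1.5-fold higher and 3 lower, beside 3.15% and 3.4% over all genes. The median log2 ratio was 0.04, and 2 of the higher and 1 of the lower reached 20 CPM in 1 library only. Id2, an inhibitor of helix-loop-helix factors that BMPs induce, was at 72.8 and 153 CPM, a ratio of 2.10 (1.77 to 2.51). Without the cells with an Edn2 count its ratio was 1.56. Tgfbr3, betaglycan, a co-receptor for TGF-beta and inhibin, was at 187 and 125 CPM, a ratio of 0.666 (0.575 to 0.770), and inside 1.5-fold in 9 of 14 alternative settings. Smad3, which carries the TGF-beta signal to the nucleus, was at 35.2 and 22.7 CPM (0.714 with an Inha limit of 2000 CPM), and Bmp6, a BMP ligand, at 23.7 and 13.5 CPM. Bmp7, a ligand known to be made by theca cells, was at 18.8 and 32.2 CPM, from 54 and 74 counts. Of 16 measured IGF and growth factor genes, 2 were higher, both at 20 CPM in the PS-MP library only, and 2 lower. Egfr, the EGF receptor, was at 112 and 72.8 CPM, a ratio of 0.647 (0.533 to 0.782), which was 0.766 with cells thinned. Igfbp2, an IGF-binding protein, was at 75.6 and 48.4 CPM, a ratio of 0.640 (0.504 to 0.808), which was 0.727 with at most 15% mitochondrial counts. No shared direction was seen in either list.

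Structural genes were mixed as well. Of 32 measured extracellular matrix genes, 6 were at least 1.5-fold higher, 2 of them at 20 CPM in the PS-MP library only, and 1 lower, with a median log2 ratio of 0.04. Among all measured genes 3.15% were called higher and 3.4% lower. Fn1, fibronectin, was the lower one at 262 and 152 CPM, a ratio of 0.581 (0.511 to 0.661), which was 0.672 with an Inha limit of 2000 CPM. Col15a1, a basement membrane collagen, was at 20.5 and 86.7 CPM, but 5 cells held 81.4% and 79.9% of its counts. With a Cyp17a1 limit of 2000 CPM the Col15a1 ratio was 0.790. The other higher members, Vcan, Mmp2, Sparcl1, Col18a1 and Bgn, were below 100 CPM in both libraries and more abundant in stromal cells. With a Cyp17a1 limit of 2000 CPM Bgn was reversed, at 0.787, and Vcan (1.45), Sparcl1 (1.08) and Col18a1 (1.49) lay inside 1.5-fold. Of 16 measured tubulin and intermediate filament genes, 4 were at least 1.5-fold higher and 0 lower, with a median of 0.26. All 16 reached 20 CPM in both libraries, a level at which 1.71% of all genes were called higher. Lmna, lamin A, was at 112 and 182 CPM, a ratio of 1.62 (1.40 to 1.89). Tubb6 and Tubb5, beta-tubulins, had ratios of 1.79 and 1.55, and Stmn1, a tubulin-binding protein, 1.70. With a Cyp17a1 limit of 2000 CPM these 3 calls ended, at 1.43, 1.34 and 1.26, and with cells thinned Tubb5 was at 1.197. Actg1, cytoplasmic gamma-actin, was at 3379 and 4451 CPM, a ratio of 1.32 (1.28 to 1.35).

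Of 12 measured cell cycle genes, 5 were at least 1.5-fold higher and 0 lower, with a median log2 ratio of 0.42. The share called higher over all genes was 3.15%. Ube2c, Cdk1 and Ccna2 reached 20 CPM in the PS-MP library only, and of the 8 genes at 20 CPM in both libraries 2 were called, so the count is no support for a direction. For the pair named here, most cells had no count. Ube2c, a ubiquitin-conjugating enzyme of mitosis, was at 19.2 and 45.7 CPM, with 105 PS-MP counts in 17 cells and 83.8% of them in 5. Its ratio of 2.39 (1.71 to 3.37) was 1.57 without called doublets. Top2a, a topoisomerase of dividing cells, was at 26.1 and 48.4 CPM, with counts in 28 control and 33 PS-MP cells. When cells were thinned to 3500 counts the Top2a ratio was 0.861. The number of cells with a Ube2c count was 23 in the control and 17 in the PS-MP library.

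Lists of lipid, redox and stress genes held at most 1 called gene each, a share near the 3.4% called lower over all genes, so no result about these lists is drawn. Cd36, a fatty acid and lipoprotein receptor, was at 42.1 and 24.0 CPM, a ratio of 0.569 (0.406 to 0.788) or 0.751 with cells thinned, and it was the 1 lower gene of 17 measured for cholesterol uptake and lipid storage. That list had the lowest median of the 31, at -0.20. Scarb1, the receptor that takes up HDL cholesterol, was at 1076 and 1072 CPM, and Soat1, which esterifies cholesterol for storage, at 2023 and 2126 CPM. Abca1, which exports cholesterol, was at 707 and 851 CPM, a ratio of 1.203 (1.13 to 1.28). No gene of the 17 measured for cholesterol synthesis passed 1.5-fold. Gsta4, a glutathione transferase that clears lipid peroxidation products, was at 242 and 137 CPM, a ratio of 0.567 (0.495 to 0.649), with counts in 220 control and 145 PS-MP cells. It was the 1 gene of 24 measured antioxidant and metal genes past 1.5-fold. No gene passed 1.5-fold in the lists for ER folding and stress (23 measured), heat shock (13), nuclear oxidative phosphorylation (33), the mitochondrial genome (13) or glycolysis (17). The same held for DNA methylation (14) and apoptosis (13), and Kdm4a, a histone demethylase at 24.0 and 15.2 CPM (a ratio of 0.635, or 0.768 with single cells weighted alike), was the 1 such gene of 36 in the histone list.

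**Figure D4:**
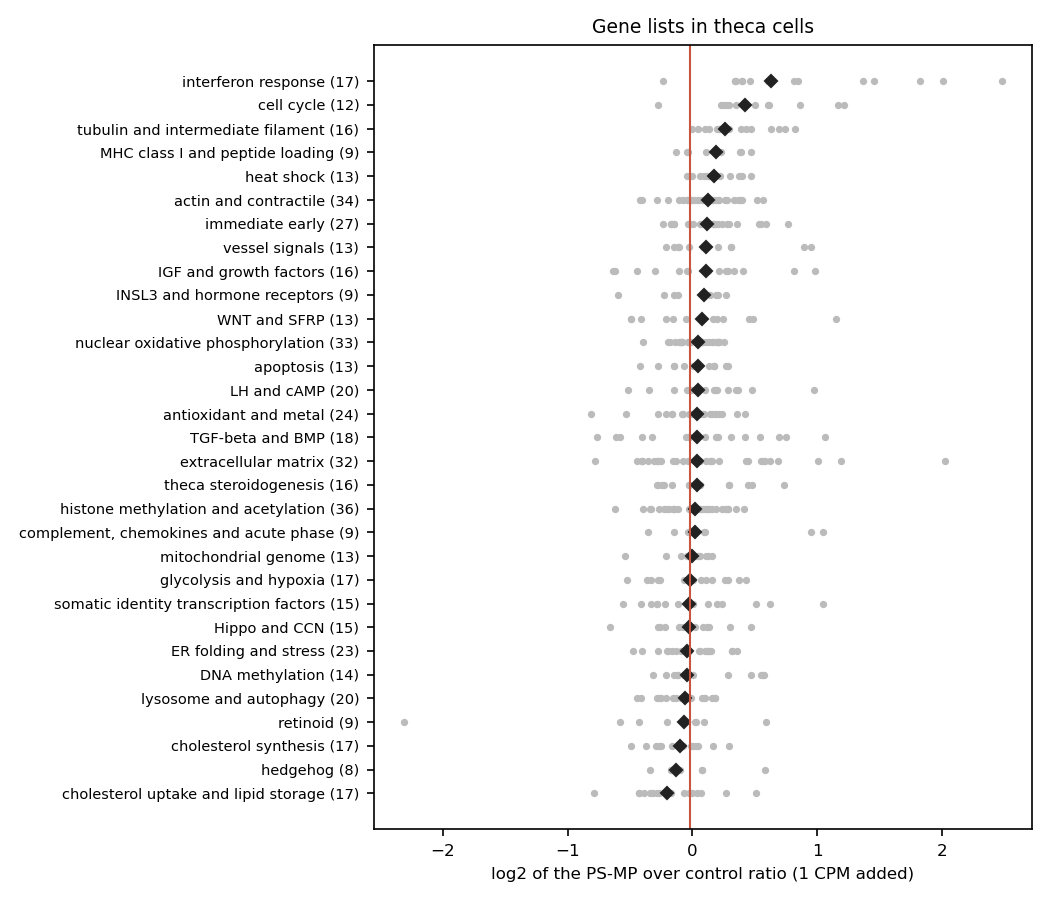
Log2 of the PS-MP over control ratio in theca cells (horizontal, 1 CPM added to both values) for the measured members of 31 gene lists, with the number measured in parentheses. Grey points are members, black diamonds list medians and the red line the median of all 7166 genes (-0.02); the measured interferon genes, 4 of which reached 20 CPM in the PS-MP library only, have the highest median, 0.63, and cholesterol uptake and lipid storage the lowest, -0.20.

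The 12 highest and 12 lowest ratios were taken among genes at 50 CPM or more, leaving out those at least 10 times more abundant in another class, such as Col15a1 and Id2. Kcnk3, a potassium leak channel, was at 192 and 408 CPM, a ratio of 2.12 (1.91 to 2.36). Abi1, an adaptor of actin assembly, was at 352 and 666 CPM, a ratio of 1.89 (1.75 to 2.05), with counts in 222 and 235 cells. Osgin1, an oxidative stress-induced growth inhibitor, was at 50.5 and 102 CPM, a ratio of 2.01 (1.63 to 2.49). Cxcl1, a chemokine that draws neutrophils, was at 80.5 and 167 CPM, a ratio of 2.07 (1.76 to 2.45), with 429 and 479 CPM in C1q cells. In the below-limit steroidogenic cells Abi1 was at 363 and 221 CPM, Osgin1 at 45.1 and 90.9 CPM and Cxcl1 at 86.8 and 70.2 CPM. Sox9 was at 1.35 with a Cyp17a1 limit of 2000 CPM. Trib1, Sox9, Meg3, Peg10 and Lsamp completed the 12 highest together with Cxcl10, Irgm1 and Pde10a, at ratios from 1.85 to 4.07.

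Among the 12 lowest, Serpina3a, a serine protease inhibitor, was at 150.1 and 34.4 CPM, a ratio of 0.229 (0.178 to 0.292). It was more abundant in granulosa cells, at 382 and 225 CPM, where it was also lower in the PS-MP library. Stk32a, a kinase, was at 82.2 and 34.4 CPM, a ratio of 0.419 (0.320 to 0.542), with counts in 102 and 40 cells. Its level was at most 4.16 CPM in granulosa and stromal cells. Adh1, an alcohol dehydrogenase that also oxidizes retinol, was at 168 and 91.1 CPM, a ratio of 0.544 (0.460 to 0.641), which was 0.741 with cells thinned. Akr1c14, an aldo-keto reductase that acts on steroids, was at 162 and 80.6 CPM, a ratio of 0.499 (0.418 to 0.593). Granulosa cells held more of Akr1c14, at 414 and 411 CPM, with little difference between the libraries. Sphkap, an anchoring protein for protein kinase A, was at 57.8 and 27.4 CPM, a ratio of 0.475 (0.349 to 0.638). The rest were Serp2, Zbtb8b, Ces2g, Kcnip1, Rbfox1, Nnat and Kalrn, at ratios from 0.384 to 0.557, of which Nnat came to 0.945 when cells were thinned to 3500 counts. Serp2 counts lay in 27 control and 21 PS-MP cells, and the 5 cells with the most held 79.3% and 82.6% of them. In the below-limit steroidogenic cells Serp2 was at 8.75 and 173 CPM, Adh1 at 326 and 441 CPM and Zbtb8b at 18.2 and 27.4 CPM, the other direction. The rest of the 12 were lower there too in the PS-MP library. Gas6, the secreted ligand among the genes that lead theca cells, was at 1779 and 1142 CPM, a ratio of 0.642 (0.612 to 0.673), and ranged from 0.630 to 0.680 over the alternatives, inside 1.5-fold with cells thinned (0.680) and with a Cyp17a1 limit of 2000 CPM (0.678). It was detected in 272 of 273 and 263 of 270 cells, so the lower level was not that of a few cells.

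Within theca cells, other genes varied along with Cyp17a1. Cells were split into 4 bins at 2305, 4697 and 7965 CPM of Cyp17a1, which held 62, 65, 68 and 78 control cells and 74, 70, 68 and 58 PS-MP cells from low to high. The bins did not differ greatly in depth, with median counts per cell from 9783 to 10461 in the control and from 6986 to 8002.5 in the PS-MP library. Genes were named for the ratio of the top over the bottom bin in both libraries, so the ratios are a description. Prkar2b was at 195 CPM in the lowest and 838 CPM in the highest bin of the control library, and at 282 and 1192.5 CPM in the PS-MP library. Fads2 went from 581 to 1764 CPM and from 574 to 2243 CPM. Both genes were higher in each bin than in the one before it, in both libraries. The other genes named on this side were Aqp5, Reep6, Abi3bp, Slc38a1, Cyp26b1, Fndc4, Niban1 and Bmp3. In the PS-MP library Cyp26b1 was at 1.43 CPM in the lowest and 4.50 CPM in the highest bin. That ratio of 3.14 had an interval of 0.164 to 185, so it shows no direction.

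Of the 15 other measured steroid synthesis genes, 10 were higher in the top than in the bottom bin in both libraries, and Cyb5a alone was lower in both, with ratios of 0.837 and 0.734. Srd5a3, Mgarp, Stard3 and Acbd3 went opposite ways in the 2 libraries, and the Mgarp ratios were 0.988 and 1.06. The top over bottom ratio of Cyp11a1 was 1.76 in the control and 1.57 in the PS-MP library, and that of Hsd3b1 was 1.14 and 1.35. Lhcgr had ratios of 1.499 and 1.57, Fdx1 1.66 and 1.73, and Star 1.43 and 2.30. Of the theca markers, Slc45a3 (1.63 and 2.18) and Aoc3 (1.81 and 1.91) were higher in the top bin. Stc1 was lower there, at 776 CPM in the lowest and 434 CPM in the highest bin of the control library and 1120.0 and 436 CPM in the PS-MP library. S100a6, a calcium-binding protein, was at 103 and 5.12 CPM and at 63.0 and 2.25 CPM. Ephx2, an epoxide hydrolase, was at 119 and 14.1 CPM and at 222 and 38.2 CPM. Col1a1, a fibrillar collagen, was at 171 and 34.5 CPM and at 345 and 47.2 CPM. The lowest bin thus held less Cyp11a1 and Hsd3b1 mRNA and more of Stc1, S100a6, Ephx2 and Col1a1.

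**Figure D5:**
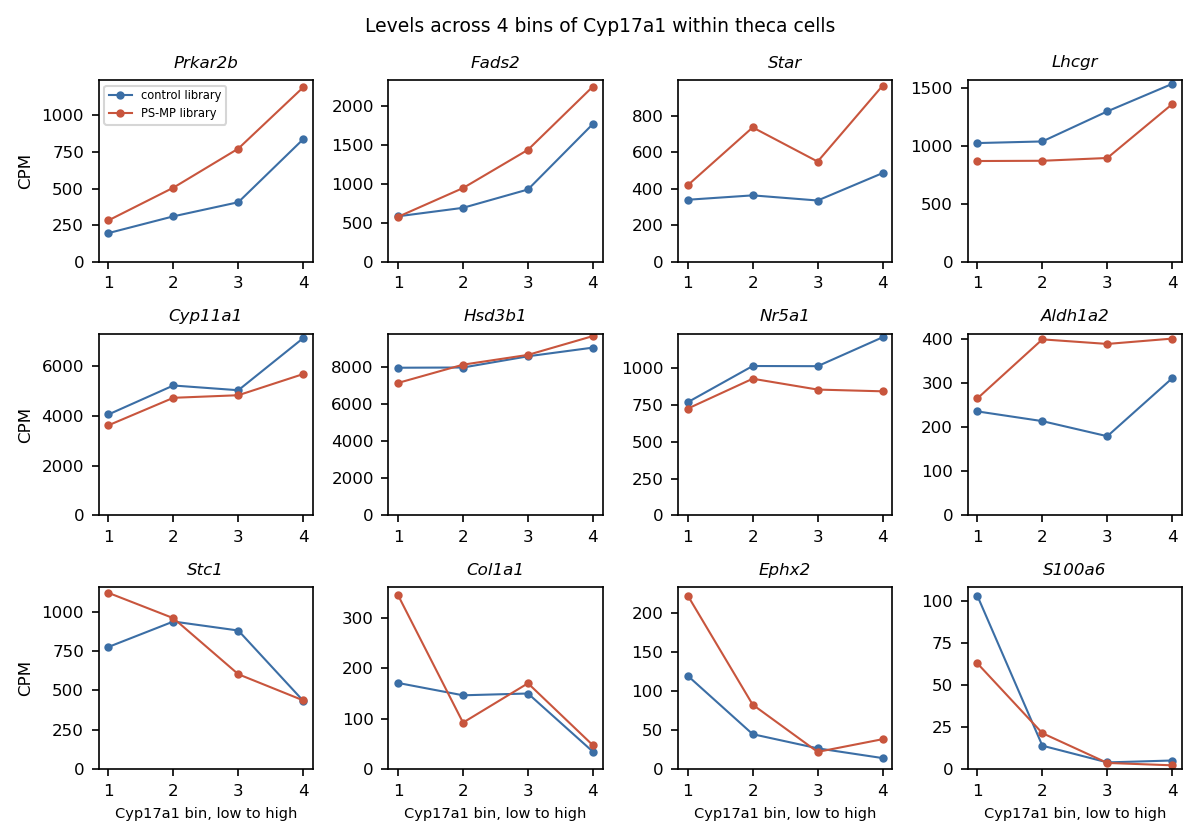
CPM of 12 genes (vertical, summed counts, each axis from 0) in 4 bins of theca cells ordered by Cyp17a1 (horizontal, bin 1 lowest) in the control (blue) and PS-MP (red) library. Prkar2b and Fads2 are higher in each successive bin in both libraries, while Stc1, Col1a1, Ephx2 and S100a6 are lower in the top than in the bottom bin.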

How the data were processed

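The data were single-cell RNA counts of whole mouse ovary from 1 control and 1 PS-MP library. The deposited values are raw UMI counts per gene and cell, which the authors made from BD Rhapsody libraries sequenced on an Illumina NovaSeq, per the labels' protocols. The submitters' processing notes name GRCm39 and Seurat; the aligner, annotation and counting rules are not stated in these notes or labels. The control file held 15373 cells and the PS-MP file 15056, with at least 3575 counts each; 3 barcodes were in both files, of which 2 were among the kept cells.

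Cells were kept at 500 or more genes and at most 25% mitochondrial counts. Counts were summed over the theca cells of a library and scaled to CPM, and the ratio of the libraries was given an exact conditional binomial 95% interval. A gene was measured at 20 CPM or more in a library and called at 1.5-fold; a gene at that level in 1 library only had to be higher there. List medians are of log2 ratios with 1 CPM added to both values. With 1 library per group no p-value was computed, and intervals cover counting error only. Other cell classes were gated by marker CPM, and those gates were chosen after the files were read. Doublets were called with scrublet in scanpy 1.11.5, which marked 2.12% and 2.42% of cells; called cells were left out only as an alternative. To compare shares of cells across depths, cells were thinned to 3500 counts, which left out no cell.

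The members and gene lists were chosen with earlier results of these data known. Named genes were the markers, all members of 4 lists (steroid synthesis, LH and cyclic AMP, hormone receptors, hedgehog) and up to 6 of each other list with the largest ratios. To these came the 12 highest and 12 lowest ratios among genes at 50 CPM or more whose interval excluded 1, leaving out genes more abundant by 10 times or over in another class, the 25 genes that lead theca cells, and 10 genes each way across the Cyp17a1 bins. Irf1, Stat2, Irf9, Ifitm3, Gbp2, Gbp7, Igtp, Bst2, Bgn, Kit, Scarb1, Soat1, Abca1, Actg1, Jak3 and Inhba were named after their values were seen, as was Ifit3. Promoters came from RefSeq on GRCm38.p6, and both strands were searched. The software was Python 3.11.15, numpy 2.4.6, scipy 1.17.1, pandas 2.3.3 and matplotlib 3.10.9. The scripts were tested on simulated data. A few list members are counted in their lists but not reported here by name.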

Additional observations from a re-analysis of the deposited data

How the results depend on the processing

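With 1 library per group, nothing here checks the spread between mice. No paired analysis was possible because each group is 1 library. The share of theca cells followed the limits: with Cyp17a1 at 500 CPM it was 2.25% of control and 2.11% of PS-MP cells, at 2000 CPM 1.54% and 1.39%, with Inha at 2000 CPM 1.44% and 1.46%, and with at most 15% mitochondrial counts 1.57% and 1.49%. The 226 higher and 244 lower genes became 486 and 531 with cells thinned to 3500 counts, 78 and 76 at 50 CPM or more, 737 and 847 at 5 CPM or more, 758 and 962 at a smaller fold limit, and 55 and 31 at 2-fold. Of 496 list medians under the alternatives, 493 moved little, 3 moved and 0 reversed. Of 1680 gene ratios under the alternatives, 92 moved and 15 reversed. Of 73 named ratios past 1.5-fold, 36 came inside it under at least 1 alternative and 37 under none. With the Cyp17a1 limit at 2000 CPM, Stc1 was at 0.987, Hsd3b1 at 1.02, Col15a1 at 0.790, Bgn at 0.787 and Col1a1 at 0.922. With cells thinned, Stc1 was at 0.955, Hsd3b1 at 1.002, Aldh1a1 at 1.02, Top2a at 0.861 and Bgn at 0.827, and the top over bottom bin ratio of Ube2c in the control library was 1.46. With single cells weighted alike, Aldh1a1 was at 1.003 and Bgn at 0.977. With the Cyp17a1 bins weighted alike, Cyp17a1 was at 1.005 and Hsd3b1 at 1.001. With Inha at 2000 CPM, Igtp was at 0.876. The cause of these reversals was not tested. The settings without cells that pass another gate and without cells with an Edn2 count were chosen after seeing the data.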
